A study of Mus musculus with 6 samples.

Results

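Transcripts of 9 genes of the transforming growth factor-β (TGF-β) system were followed in mouse T cells after co-culture with ovarian cancer cells. They were the ligands Tgfb1, Tgfb2 and Tgfb3, the receptors Tgfbr1, Tgfbr2 and Tgfbr3, the signal transducer Smad3, the inhibitor Smad7 and the target gene Tgfbi. The genes were chosen by name, and all 9 were found among the 54532 genes of the deposited expression table. T cells were isolated with a pan T-cell kit from spleens of C57BL/6 mice aged 6 to 8 weeks, activated for 72 h on beads carrying antibodies to CD3 and CD28, with IL-2 at 10 ng/mL in the medium. They were then placed with ID8 cells, a C57BL/6 ovarian surface epithelial tumour line, which had first received PBS (the libraries titled WT) or 40 µM cisplatin, a platinum drug that crosslinks DNA (the libraries titled CIS). Each group held 3 poly-A RNA-seq libraries, and the comparison asked how T-cell transcripts differed with the pretreatment of the tumour cells. The labels do not say whether the 3 libraries of a group came from separate mice or cultures, so every p-value below measures only the spread between these libraries. The methods name no sort after the co-culture.

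TGF-β ligands are secreted in a latent form, held by a propeptide and by latent TGF-β binding proteins, and must be released before they act. Active ligand binds the type II receptor TGFBR2, which recruits and phosphorylates the type I receptor TGFBR1; this receptor phosphorylates SMAD2 and SMAD3, which enter the nucleus with SMAD4. In T cells TGF-β restrains proliferation and effector differentiation and takes part in the differentiation of regulatory T cells, while epithelial and mesothelial cells answer it with matrix genes.

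The libraries did not hold T-cell transcripts alone. Levels are given in FPKM (fragments per kilobase of transcript, scaled to a total set for each library), so they are per unit length. Fold changes are log2 differences of FPKM plus 0.1 from limma, cisplatin minus PBS. Of 22 T-cell markers, 22 were higher with cisplatin, by a median of 0.60 on the log2 scale, and their summed level went from 1978 to 2106 FPKM in the PBS libraries to 3128 to 3199 FPKM. Of 14 markers of ID8 cells and their epithelial and mesothelial origin, 11 were expressed enough to test and all 11 of these fell, by a median of 2.44 on the log2 scale, with a summed level of 1517 to 1588 FPKM against 220.2 to 226.5 FPKM. The keratin Krt19 had 646.1 FPKM in the PBS mean and 52.9 FPKM in the cisplatin mean. The summed level of 12 B-cell markers was 1703 to 1791 FPKM against 3641 to 3713 FPKM. Most of that sum was Ighm, with group means of 1433 FPKM with PBS and 3220 FPKM with cisplatin. All 12 were tested, 10 rose and 1 fell, with a median log2 change of 0.46. The summed level of 12 myeloid markers was 67.8 to 72.3 FPKM against 132.1 to 150.9 FPKM, and of 11 tested 9 rose and 1 fell. Among those that rose, C1qa, Fcgr1 and Adgre1 had PBS means of 0.265, 0.293 and 0.288 FPKM and were tested only through their cisplatin levels. The 5 fibroblast markers summed to 38.9 to 40.7 FPKM and 8.10 to 8.41 FPKM, of which 1, Dcn, was tested and fell, and the 6 endothelial markers to 17.8 to 18.4 FPKM and 22.95 to 23.45 FPKM. Of 3 tested endothelial markers 2 fell and 1 rose, which was Pecam1, with means of 13.4 FPKM with PBS and 20.6 FPKM with cisplatin. The ranges for 6 platelet markers were 89.9 to 119.8 FPKM and 79.0 to 91.7 FPKM, and those for 4 natural killer cell markers were 7.74 to 8.65 FPKM and 9.07 to 10.8 FPKM. Of 5 tested platelet markers 1 rose and 1 fell, the latter being Ppbp (means of 46.3 and 22.4 FPKM). None of the 3 tested natural killer cell markers passed. No marker of any list was at 0 in all 6 libraries. In such a mixture fewer cells of a type and less RNA per cell cannot be told apart, and the part of these cells in the results below was not tested. Rescaling every library to its T-cell markers moved the median log2 change of all tested genes from 0.03 to -0.55, so member values on that scale are given beside the deposited scale where they change sign or call.

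**Figure D1:**
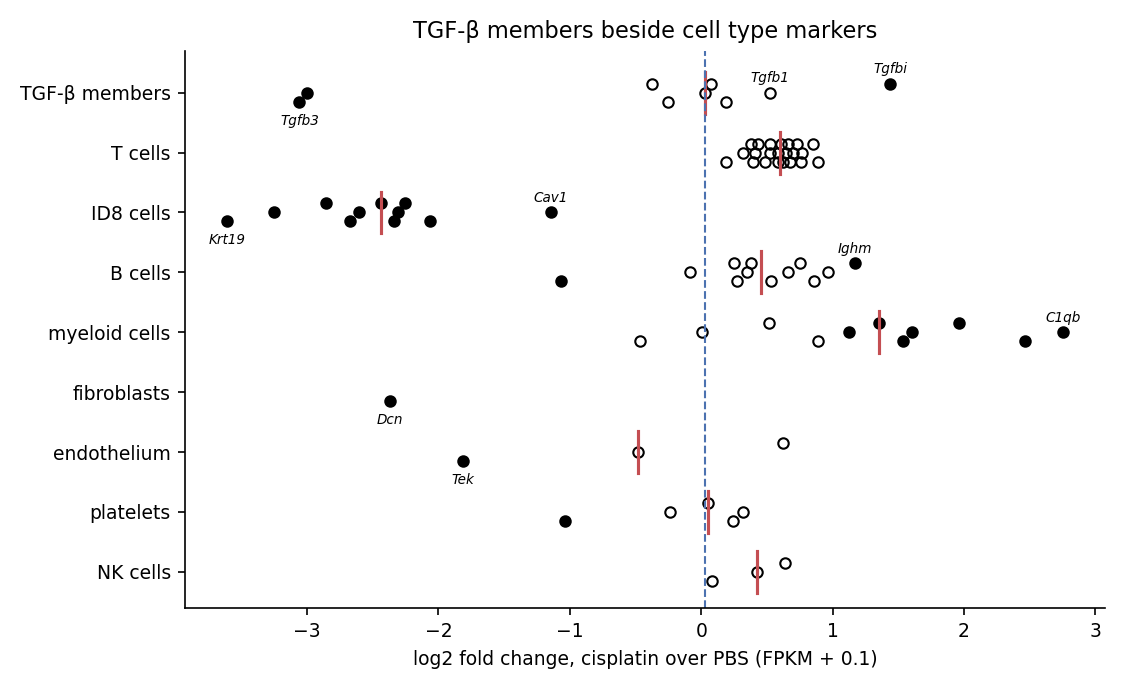
Log2 change (cisplatin minus PBS) of the 9 TGF-β genes (top row) and of each tested marker gene by cell type; filled dots are genes called at an adjusted p below 0.05 with a fold of at least 2, open dots are not called, the red bar is the median of a list and the dashed blue line the median of all tested genes. The 22 T-cell markers lie above the line with a median of 0.60 and the 11 ID8 markers below it with a median of -2.44.

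All 9 genes had a mean of at least 0.5 FPKM and were tested among 15874 genes. An adjusted p below 0.05 was reached by 7 of the 9, 3 higher and 4 lower with cisplatin, where 56.5% of all tested genes reached it, 27.5% higher and 29% lower. With a fold of at least 2 in addition, hereafter a call, 3 of the 9 remained, against 16.9% of tested genes: Tgfb2 and Tgfb3 were lower, where the background was 12.8%, and Tgfbi was higher, where it was 4.11%. The 3 libraries of one group lay apart from the 3 of the other for 8 of the 9 genes and for 64.2% of all tested genes. The median log2 change was 0.03 for the 9 genes and 0.03 for all tested genes. Most tested genes differed between the groups, so a difference in 1 of these genes was not unusual in these libraries. Depth was even, with 30606569 to 31255205 reads on genes in the PBS and 30847321 to 32169496 in the cisplatin libraries.

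**Figure D2:**
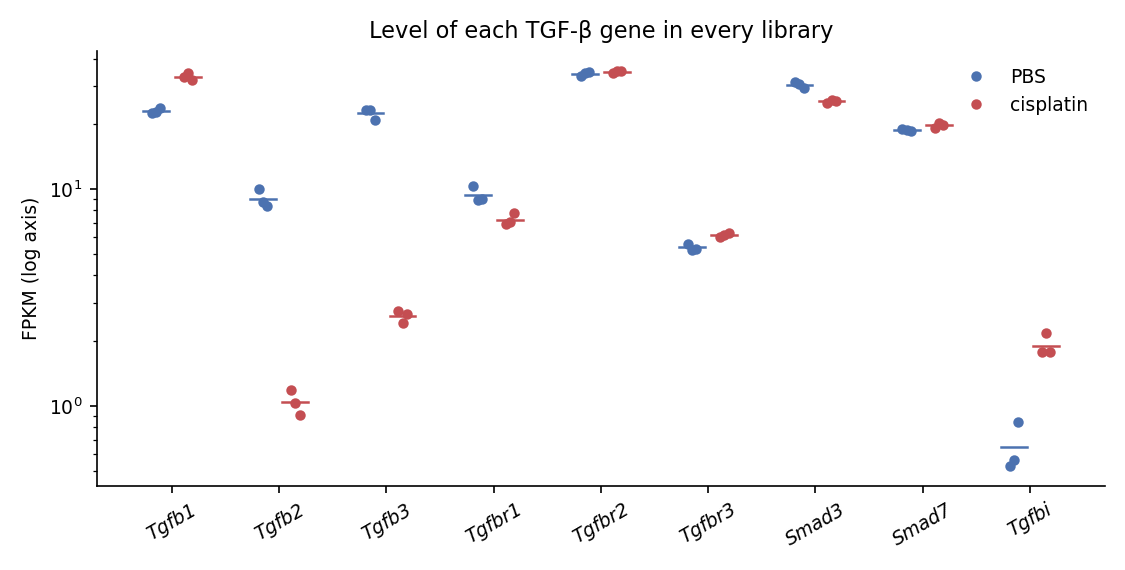
FPKM of the 9 TGF-β genes in each library on a log axis, with points for the 3 PBS and the 3 cisplatin libraries and the mean of each group as a line. Tgfb2 and Tgfb3 fell from means of 9.04 and 22.4 FPKM to 1.05 and 2.60 FPKM, while the points of Tgfbr2 overlap.

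The ligand genes moved in opposite directions. Tgfb1 (ENSMUSG00000002603, chr7:25687002-25705077, plus strand of GRCm38) encodes the isoform that predominates in the immune system. It had 22.5, 22.6 and 23.7 FPKM in the PBS libraries and 32.8, 34.2 and 32.0 FPKM in the cisplatin libraries. Each cisplatin library was above each PBS library. The means were 22.9 ± 0.669 FPKM and 33.0 ± 1.13 FPKM (SD, n = 3 libraries), a log2 change of 0.52 (95% interval 0.43 to 0.62, limma adjusted p = 4.8e-05), and on the T-cell scale the sign turned and the gene no longer passed (-0.06, adjusted p = 0.242). Of the 22 T-cell markers, 14 had a higher log2 change than Tgfb1. Among all tested genes, those with the most similar profile to Tgfb1 over the 6 libraries, by Euclidean distance of centred log2 values, were H2-Aa (0.0398), an MHC class II chain of antigen-presenting cells, Hsh2d (0.0545) and Mrpl36 (0.0549), a mitochondrial ribosomal protein.

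Tgfb2 (ENSMUSG00000039239, chr1:186622792-186705989, minus strand) encodes an isoform best known from epithelium, mesenchyme and development. The PBS libraries had 10.04, 8.75 and 8.32 FPKM and the cisplatin libraries 1.19, 1.04 and 0.911 FPKM. The groups were far apart, and no library lay between them. The mean fell from 9.04 ± 0.898 to 1.05 ± 0.140 FPKM (n = 3 each), 8.64-fold lower on the FPKM scale, with a log2 change of -2.998 (95% interval -3.29 to -2.71, limma adjusted p = 2.6e-06). Rebuilt read numbers behind these values were 1478 to 1746 in the PBS and 171 to 223 in the cisplatin libraries.

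Tgfb3 (ENSMUSG00000021253, chr12:86056745-86079041, minus strand), the remaining isoform, is known from epithelial fusion and from T helper cells. Its PBS values were 23.3, 23.2 and 20.8 FPKM and its cisplatin values 2.74, 2.43 and 2.64 FPKM. Here too the groups did not overlap. The mean went from 22.4 ± 1.39 to 2.60 ± 0.161 FPKM, 8.61-fold lower, with a log2 change of -3.06 (95% interval -3.23 to -2.89, limma adjusted p = 2.6e-07). On the T-cell scale the changes of Tgfb2 and Tgfb3 were -3.58 and -3.64. Of the 11 tested ID8 markers, 2 had a lower log2 change than Tgfb2 and the same number a lower one than Tgfb3. Exons of Tgfb2 overlap those of Gm29491 on the opposite strand over 124 bases, and exons of Tgfb3 overlap those of Gm37804 over 163 and Gm48008 over 257 bases, also on the opposite strand. Whether the counting used strand is not given in the sources used here, and these partner genes had at most 0.329 FPKM in any library.

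The makeup of ligand transcripts changed with the pretreatment. Summed over the 3 genes, a quantity chosen after its values were seen, ligand transcripts were 55.8, 54.5 and 52.8 FPKM with PBS and 36.7, 37.7 and 35.5 FPKM with cisplatin, so all cisplatin libraries were lower. Tgfb1 made up 40.3, 41.4 and 44.9% of that sum with PBS and 89.3, 90.8 and 90.0% with cisplatin. The share rose from 42.2 ± 2.36% to 90.0 ± 0.754% (n = 3 each), the groups did not overlap, and a two-sided exact permutation test over the 6 libraries gave p = 0.1, the smallest that 3 against 3 allows. The share of Tgfb3 was 41.2 ± 1.62% and 7.11 ± 0.584%, and that of Tgfb2 16.6 ± 1.21% and 2.85 ± 0.348%. The ratio of Tgfb3 to Tgfb2 was 2.49 ± 0.167 with PBS and 2.52 ± 0.336 with cisplatin (exact permutation p = 0.9), with overlapping libraries. These shares are ratios within a library, so rescaling a library leaves them as they are. They can still move with the mix of cells in a library, whose part in the shift was not tested.

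**Figure D3:**
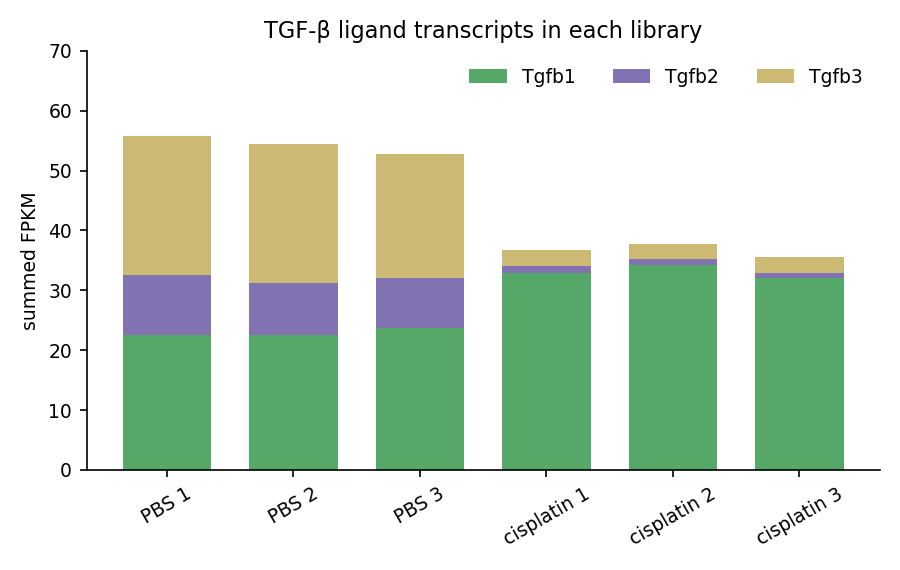
FPKM of Tgfb1, Tgfb2 and Tgfb3 stacked to their sum, with a bar for each library. The bars reach 52.8 to 55.8 FPKM with PBS and 35.5 to 37.7 FPKM with cisplatin, and the Tgfb1 part takes 40.3 to 44.9% of a bar with PBS and 89.3 to 90.8% with cisplatin.

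Sequence upstream of the genes is shown for the ligand genes that moved apart and for the called target, because these carry the contrast. RefSeq entries on GRCm38.p6 were used for 6 of the 9 genes. No entry was found for Tgfb3 and Tgfbr3, and the upstream sequence of Smad7 was not searched. Capitals mark matches to any of 6 motifs, searched on both strands. The SMAD-binding motif bound by SMAD3 and SMAD4 was searched as CAGAC. The core of a cAMP response element was searched as TGACG, and the site bound by AP-1, the factor made of JUN and FOS proteins, as TGACTCA. The motif bound by SP1 and its relatives was GGGCGG, the E-box of helix-loop-helix factors was CACGTG, and the motif bound by the TATA-binding protein was TATAAA. Bases are 5′ to 3′ on the strand of the gene and end just before its first base.
Tgfb1, chr7:25686752-25687001, plus strand: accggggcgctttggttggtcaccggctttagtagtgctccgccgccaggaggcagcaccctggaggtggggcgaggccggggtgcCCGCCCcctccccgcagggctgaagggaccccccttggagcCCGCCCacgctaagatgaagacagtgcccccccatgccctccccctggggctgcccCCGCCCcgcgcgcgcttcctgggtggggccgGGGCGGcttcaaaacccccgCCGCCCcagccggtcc
Tgfb2, chr1:186705990-186706239, minus strand: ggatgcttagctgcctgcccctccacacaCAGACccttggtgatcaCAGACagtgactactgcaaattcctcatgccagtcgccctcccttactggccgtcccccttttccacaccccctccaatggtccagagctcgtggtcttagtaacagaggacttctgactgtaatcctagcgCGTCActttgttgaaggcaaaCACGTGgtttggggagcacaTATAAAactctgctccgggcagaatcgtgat
Tgfbi, chr13:56609336-56609522, plus strand: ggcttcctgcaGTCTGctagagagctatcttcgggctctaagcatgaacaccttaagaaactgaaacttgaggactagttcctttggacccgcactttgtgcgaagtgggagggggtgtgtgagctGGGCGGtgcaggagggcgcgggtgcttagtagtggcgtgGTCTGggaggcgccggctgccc

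The Tgfb1 stretch was 75.2% G and C, held 5 SP1 motifs and none of the other motifs. The Tgfb2 stretch was 53.6% G and C and held 2 SMAD-binding motifs, 1 cAMP response core, 1 E-box and 1 TATA motif, the last 31 bases before the start, but no SP1 motif. The Tgfbi stretch spanned 187 bases at 59.4% G and C, with 2 SMAD-binding motifs and 1 SP1 motif. Across 32851 promoters of the same table, each with 250 upstream bases, 42.2% held a SMAD-binding motif, 17.8% the cAMP response core, 4.46% the AP-1 site, 32.7% a SP1 motif, 6.02% the E-box and 12.4% the TATA motif. Of the other genes, Tgfbr1 and Smad3 each held 2 SP1 motifs and Tgfbr2 held 1 SMAD-binding motif. A match describes letters only.

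On the deposited scale the log2 changes of the receptor genes were smaller in size than those of the ligand genes, which did not hold for Tgfb1 (-0.06) on the T-cell scale, where Tgfbr1, Tgfbr2 and Tgfbr3 were at -0.96, -0.55 and -0.39. Tgfbr1 (ENSMUSG00000007613, chr4:47353222-47414931, plus strand) encodes the type I receptor kinase. It had 10.4, 8.90 and 9.05 FPKM with PBS and 6.91, 7.03 and 7.76 FPKM with cisplatin. All cisplatin libraries were below all PBS libraries. The mean fell from 9.44 ± 0.814 to 7.24 ± 0.457 FPKM, and the log2 change was -0.38 (95% interval -0.57 to -0.19, limma adjusted p = 0.0059).

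Tgfbr2 (ENSMUSG00000032440, chr9:116084293-116175360, minus strand) encodes the ligand-binding type II receptor and had the highest level of the 9 genes in both groups. The values were 33.1, 34.3 and 34.8 FPKM with PBS and 34.2, 35.2 and 35.1 FPKM with cisplatin. The groups overlapped. Its log2 change was 0.03 (95% interval -0.05 to 0.11, limma adjusted p = 0.446), which leaves changes beyond 0.11 in size outside the interval on the deposited scale only. Rescaled to reads on genes it was 0.12 and passed (limma adjusted p = 0.0171), while on the T-cell scale it was -0.55 (adjusted p = 4.0e-06). Nearest in profile were Mcrip1 (distance 0.0330), Gabpa (0.0373), an ETS-family transcription factor, and Hnrnpdl (0.0460), an RNA-binding protein. The ratio of Tgfbr2 to Tgfbr1 was 3.19, 3.86 and 3.85 with PBS and 4.95, 5.01 and 4.52 with cisplatin, without overlap (3.63 ± 0.384 and 4.83 ± 0.267, exact permutation p = 0.1).

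Tgfbr3 (ENSMUSG00000029287, chr5:107106570-107289629, minus strand) encodes betaglycan, a co-receptor that presents ligand, TGF-β2 above all, to TGFBR2. It had 5.59, 5.25 and 5.31 FPKM with PBS and 6.01, 6.17 and 6.30 FPKM with cisplatin. The cisplatin libraries were all higher, by a small margin. The log2 change was 0.19 (95% interval 0.06 to 0.32, limma adjusted p = 0.0214), but -0.39 on the T-cell scale, and the adjusted p was 0.058 to 0.067 without PBS replicate 2, PBS replicate 3, cisplatin replicate 2 or cisplatin replicate 3. Over 297 bases its exons overlap Gm43422 on the same strand. The ratio of Tgfbr3 to Tgfbr2 was 0.158 ± 0.00935 with PBS and 0.177 ± 0.00252 with cisplatin (exact permutation p = 0.1).

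Smad3 fell while Smad7 did not pass the test on the deposited scale. Smad3 (ENSMUSG00000032402, chr9:63646767-63757994, minus strand), the receptor-activated transcription factor, had 31.2, 30.5 and 29.4 FPKM with PBS and 24.9, 25.8 and 25.5 FPKM with cisplatin. No cisplatin library reached a PBS library. The mean fell from 30.4 ± 0.922 to 25.4 ± 0.454 FPKM, with a log2 change of -0.26 (95% interval -0.34 to -0.17, limma adjusted p = 9.3e-04). Abl1 (distance 0.0445), a tyrosine kinase, Rlim (0.0470), a ubiquitin ligase, and Cerk (0.0521), a ceramide kinase, had the most similar profiles.

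Smad7 (ENSMUSG00000025880) encodes the inhibitory SMAD that blocks TGFBR1 and is itself switched on by the pathway. It had 18.8, 18.8 and 18.4 FPKM with PBS and 19.2, 20.2 and 19.7 FPKM with cisplatin. The cisplatin values lay just above the PBS values. The log2 change of 0.07 did not pass on the deposited scale (95% interval -0.01 to 0.16, limma adjusted p = 0.118). Rescaled to reads on genes it was 0.16 and passed (limma adjusted p = 0.0053). On the T-cell scale it was -0.51 and passed as lower (limma adjusted p = 2.6e-05). The ratio of Smad7 to Smad3, chosen after its values were seen, was 0.616 ± 0.0118 with PBS and 0.774 ± 0.00645 with cisplatin (exact permutation p = 0.1).

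Tgfbi (ENSMUSG00000035493, chr13:56609523-56639562, plus strand), a secreted matrix protein named for its induction by TGF-β and made by macrophages and stromal cells, was the called gene that rose. It had 0.530, 0.566 and 0.847 FPKM with PBS and 1.77, 2.17 and 1.77 FPKM with cisplatin. These are low levels, from 60 to 98 reads with PBS and 216 to 271 reads with cisplatin, and the groups were apart. The mean went from 0.648 ± 0.173 to 1.90 ± 0.231 FPKM, 2.94-fold higher, with a log2 change of 1.44 (95% interval 0.93 to 1.95, limma adjusted p = 0.00125). On the T-cell scale the change was 0.86 (adjusted p = 0.00788), under the fold of 2 that a call needs. Of 11 tested myeloid markers, 9 were higher and 1 lower, with a median log2 change of 1.35, and 5 had a higher log2 change than Tgfbi. Among the higher ones, C1qa, Fcgr1 and Adgre1 had PBS means of 0.265, 0.293 and 0.288 FPKM. They met the minimum of 0.5 FPKM only through the cisplatin libraries, so these counts, the median and the rank favour markers that rose. Lyz2, the lysozyme of macrophages and granulocytes, went from 30.8 to 89.7 FPKM, while Cd68, a lysosomal protein of macrophages, was at 24.1 and 24.2 FPKM and did not pass. The marker that fell was Cd14, from 7.43 to 5.35 FPKM (-0.47, limma adjusted p = 0.0038). The genes nearest to Tgfbi in profile were Slc25a35 (distance 0.213), Tlr13 (0.232), a myeloid sensor of bacterial ribosomal RNA, and Fcer1a (0.251), the IgE receptor chain of mast cells and basophils. Most but not all tested myeloid markers rose as Tgfbi did, and the part of myeloid cells in its change was not tested.

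By level, the order with PBS was Tgfbr2, Smad3, Tgfb1, Tgfb3, Smad7, Tgfbr1, Tgfb2, Tgfbr3 and Tgfbi, in which Tgfb1 and Tgfb3, and Tgfbr1 and Tgfb2, overlapped over the libraries. With cisplatin the order was Tgfbr2, Tgfb1, Smad3, Smad7, Tgfbr1, Tgfbr3, Tgfb3, Tgfbi and Tgfb2, with no overlap between neighbours. Tgfb3 thus passed from rank 4 to rank 7 and Tgfb2 from rank 7 to rank 9.

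**Figure D4:**
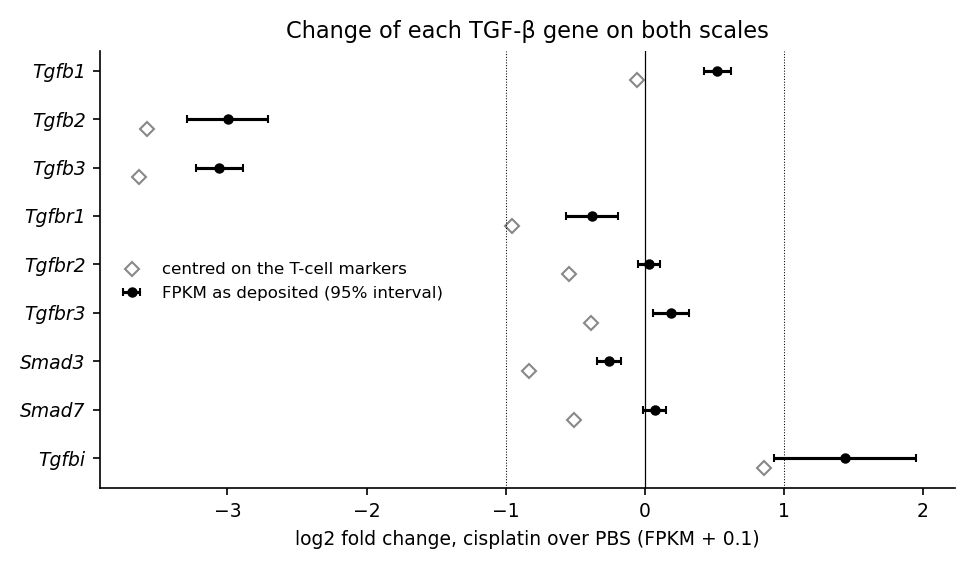
Log2 change (cisplatin minus PBS) of the 9 TGF-β genes with 95% intervals on the deposited FPKM scale, and as diamonds after rescaling each library to its T-cell markers, with dotted lines at a fold of 2. Tgfb2 (-2.998 and -3.58) and Tgfb3 (-3.06 and -3.64) lie far below 0 on both scales, Tgfbi lies above 0 on both, and Tgfb1, Tgfbr2, Tgfbr3 and Smad7 change sign between them.

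The other genes of the pathway were taken from 7 lists holding 95 genes, of which 77 were tested. Of these 42 passed lower and 17 higher, where 29% and 27.5% of all tested genes did. The calls were 28 lower and 2 higher, where the shares of all tested genes were 12.8% and 4.11%. The median log2 change was -0.25 against 0.03 for all tested genes. Most genes that store and activate the ligands fell: of 12, 10 were tested, 7 fell, 2 rose and 6 were called, all lower, with a median of -1.53. Without any one of the PBS libraries 4 were called, and Itgb8 and Fbn1 then fell below the minimum of 0.5 FPKM and were not tested. Ltbp3, a latent TGF-β binding protein, went from 149.7 ± 6.97 to 19.8 ± 1.25 FPKM (-2.91, limma adjusted p = 1.5e-07), and its relatives Ltbp4 and Ltbp1 changed by -3.66 and -1.72. Itgav and Itgb8, chains of the integrin that releases the ligand, changed by -1.55 and -1.52. Fbn1, the fibrillin that anchors latent complexes in the matrix, changed by -2.32. The cisplatin means of Ltbp4, Itgb8 and Fbn1 were 0.478, 0.232 and 0.110 FPKM, so these genes met the minimum only through the PBS libraries. The counts of falls and calls in this list therefore favour genes that fell. Both genes that rose encode anchors of latent ligand on leukocytes: Nrros, from 11.3 to 21.2 FPKM (0.90, and 0.32 on the T-cell scale), and Lrrc32, which encodes GARP of regulatory T cells, from 5.59 to 8.78 FPKM (0.64, and 0.06 on the T-cell scale). Lrrc32 and Furin, the protease that cuts the propeptide (17.4 to 13.1 FPKM, -0.40), were added after their values were seen.

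Among 11 tested of 12 regulators of the receptors, 6 fell, 1 rose and 4 were called lower, with a median of -0.79. Of all tested genes 12.8% were called lower. The called genes were Acvrl1, the type I receptor ALK1 (-2.39), Zfyve9, the SMAD anchor SARA (-2.21), Cd109, a co-receptor that inhibits signalling (-1.96), and Smurf1, a ubiquitin ligase of the receptors (-1.10). Fkbp1a, which binds the resting type I receptor, fell from 50.8 to 29.4 FPKM (-0.79) without reaching the fold of a call. Strap, a partner of SMAD7, was at 34.7 and 35.7 FPKM and did not pass (0.04, and -0.53 on the T-cell scale). The 12 SMAD partners moved little on this scale: 5 fell, 2 rose, none was called, and the median was -0.04. Over all tested genes 56.5% passed in either direction and 16.9% were called. Smad4, the common SMAD, fell from 31.5 to 27.5 FPKM (-0.19), the repressor Ski fell from 29.7 to 24.2 FPKM (-0.29), and Smad2, added after its value was seen, rose from 9.91 to 11.3 FPKM (0.19, limma adjusted p = 0.043, and -0.39 on the T-cell scale), with an adjusted p of 0.0621 to 0.121 when any one library other than cisplatin replicate 2 was left out.

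Most target genes known from epithelium and stroma fell. Of 20, 14 were tested, 12 fell, 1 rose and 9 were called, all lower, with a median of -1.30. Among all tested genes 29% passed lower and 12.8% were called lower. Lox, a collagen crosslinker, went from 34.4 ± 0.436 to 0.991 ± 0.275 FPKM (-5.02, limma adjusted p = 1.6e-06), and Ctgf, a matrix-associated growth regulator, changed by -4.20. The matrix genes Col4a1 and Fn1 changed by -2.57 and -2.53, and Klf10, an early TGF-β response gene, by -1.90. Junb, at 128.8 and 108.6 FPKM, changed by -0.25. Tgfbi, a target gene as well, moved the other way. The 11 ID8 markers and these target genes fell in the same libraries, and what part the ID8 share has in their fall was not tested.

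Genes known to answer TGF-β in T cells did not mostly fall on the deposited scale. Of 6 genes raised by TGF-β there, 3 were tested, of which 2 rose and 1 fell. Foxp3, the regulatory T-cell factor, rose from 2.65 ± 0.235 to 6.62 ± 0.147 FPKM (1.30, limma adjusted p = 1.8e-05, and 0.72 on the T-cell scale), and Itgae, the CD103 integrin chain, rose from 29.3 to 54.0 FPKM (0.88, and 0.30 on the T-cell scale). Il9 was at 0 in all libraries. Of 12 genes lowered by TGF-β in T cells, 10 were tested, 6 rose, 1 fell and 1 was called higher, with a median of 0.39. Across all tested genes 27.5% passed higher and 4.11% were called higher. The 22 T-cell markers rose by a median of 0.60, more than the median of this list. On the T-cell scale more of the 10 tested genes lay below 0 than above it. S1pr1, which guides T cells out of lymphoid organs, rose from 40.2 to 65.6 FPKM (0.71) but did not pass on the T-cell scale (0.13, limma adjusted p = 0.074), and Eomes rose, a factor of cytotoxic and memory T cells, from 1.33 to 2.86 FPKM (1.05, and 0.48 on the T-cell scale), a call that was lost without PBS replicate 1 (0.98). Klf2 rose (0.33) but turned to -0.25 on the T-cell scale. Gzmb, the granzyme of cytotoxic T cells, was at 142.2 and 151.7 FPKM and did not pass (0.09, and -0.48 on the T-cell scale), but passed at 0.18 when rescaled to reads on genes and with voom on rebuilt reads.

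**Figure D5:**
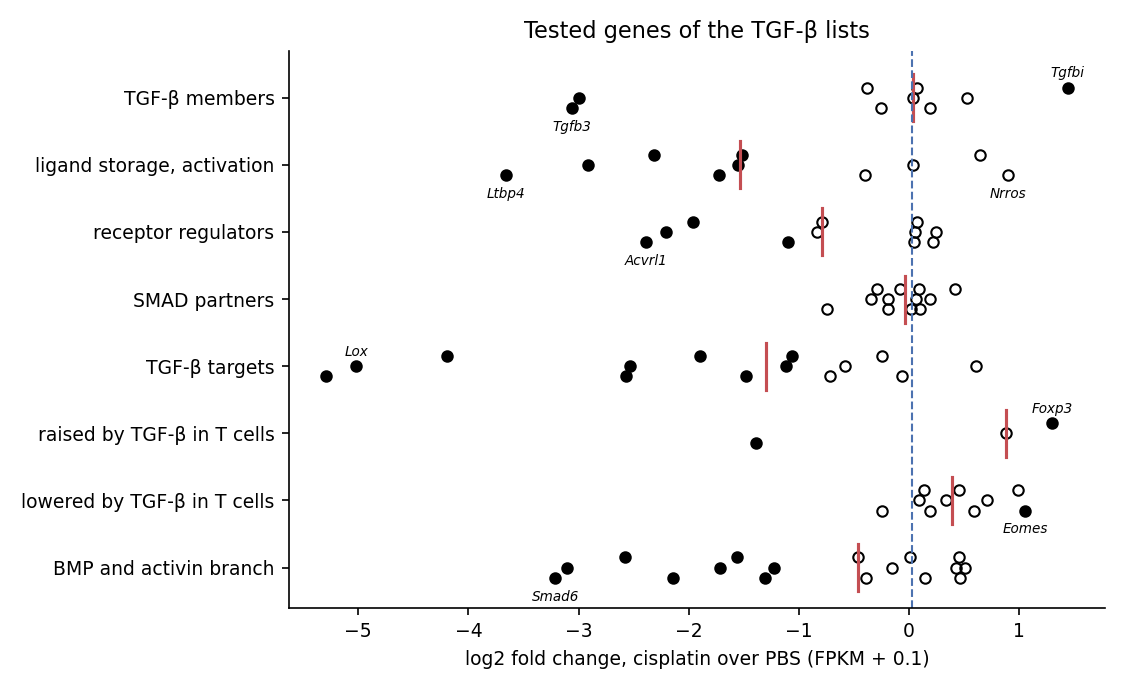
Log2 change (cisplatin minus PBS) of the 9 TGF-β genes (top row) and of each tested gene in the 7 lists of pathway genes; filled dots are called, open dots are not, the red bar is the median of a list and the dashed blue line the median of all tested genes. Target genes (median -1.30) and storage and activation genes (median -1.53) lie mostly below 0, and the SMAD partners lie around it.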

How the data were processed

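Poly-A RNA was sequenced from 3 libraries per group. Per the labels, the authors processed reads with fastp, HISAT2 2.0.5 and featureCounts 1.5.0-p3 on mm10, while the study's methods name LifeScope; strand setting, annotation release and treatment of multi-mapping reads are not given in the sources used here. The deposited values are FPKM per gene, and their median-of-ratios factors were already 1. The total behind the scaling was 0.976 to 0.982 of the reads on genes in the PBS libraries and 1.030 to 1.049 in the cisplatin libraries. Reads rebuilt from FPKM steps and gene lengths were within 0.1 of a whole read for at least 99.9961% of values, so read numbers come from those.

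Genes averaging 0.5 FPKM or more over the libraries were tested as log2(FPKM + 0.1) with limma 3.58.1 (trend) in R 4.3.3 and Benjamini-Hochberg adjustment; a pseudocount understates changes of low genes. A gene low in 1 group can meet that minimum only through the other group, where it is high. A call needed an adjusted p below 0.05 and a fold of at least 2. Shares and ratios were compared by two-sided exact permutation tests (scipy 1.17.1). Within a group libraries differed beyond sampling noise (chi-square per degree of freedom 5.11 to 5.99), so each counted as 1 replicate. Coordinates equalled GENCODE M21 for all 9 genes. From each list the text named, besides called genes, the 3 with the highest level, and for 4 roles the 3 tested genes nearest in profile. Some called list genes are left unnamed and not reported here. The fits were tested on simulated data. The members and lists were chosen with earlier results of these data known. Alternatives covered pseudocounts, filters, scalings, TPM, voom on rebuilt reads, a replicate block and leaving out each library.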

Additional observations from a re-analysis of the deposited data

How the results depend on the processing

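The calls of Tgfb2 and Tgfb3 stood under every alternative run. Tgfbi was not called with a pseudocount of 1 (0.82) or on the T-cell scale, and was not tested at a minimum of 5 FPKM. Tgfbr2 (0.11 to 0.12) and Smad7 (0.16 to 0.17) passed under quantile normalization, rescaling to reads on genes and voom on rebuilt reads, as did Id2 (0.21 to 0.23). Gzmb passed under the last 2 of these (0.18), Ep300 under quantile normalization (0.11) and voom (0.0986), and Strap under voom (0.13). Over all tested genes, 2687 were called (653 higher, 2034 lower). A pseudocount of 1 gave 1762 (311 higher), a minimum of 5 FPKM, which tests fewer genes, 1145 (242 higher, 903 lower), the T-cell scale 139 higher and 3760 lower, quantile normalization 979 higher and 1790 lower, and voom, the test on reads, 3550 (1127 higher). For the pathway lists, 30 were called (2 higher). A minimum of 5 FPKM gave 15, of which 15 were lower and 0 higher, and 15 calls among the markers. Higher calls were 1 with a pseudocount of 1, 0 on the T-cell scale and 5 with voom. Without 1 library they ranged from 1 (without PBS replicate 1) to 3. On the T-cell scale the sign turned for Tgfb1 (-0.0551), Tgfbr2 (-0.55), Tgfbr3 (-0.39), Smad7 (-0.51), Strap (-0.53), Smad2 (-0.39), Ep300 (-0.56), Gzmb (-0.48), Klf2 (-0.25), Inhba (-0.13), Id2 (-0.43) and Id3 (-0.0673), by construction of that scale. Ep300, at 0.01, was -0.0053 in TPM and -0.0094 to 0.0415 without 1 library. The log2 difference of the Tgfb3 to Tgfb2 ratio was -0.10 to 0.0744 without 1 library, with -0.03 without PBS replicate 1 and -0.10 without cisplatin replicate 3. Median-of-ratios scaling equals the deposited scale by construction. Apart from the last construction, the causes were not tested.

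Same-numbered libraries did not deviate together (correlations 0.0229, -0.0630 and -0.0207). With 3 libraries per group this cannot show whether the samples were paired, and the labels do not say. With a replicate block 2662 genes were called, among them 3 of the 9 genes, and 6 of the 9 passed, Tgfbr3 having an adjusted p of 0.0617 in limma. Of the list genes named, Smad2 no longer passed with the block (adjusted p = 0.0669) and Id2 passed (0.0486).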

Other observations

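The neighbouring bone morphogenetic protein (BMP) and activin branch, which shares SMAD4 with TGF-β, was also measured in these libraries. Of 21 genes, 17 were tested, 10 fell, 3 rose and 8 were called, all lower, with a median log2 change of -0.47 against 0.03 for all tested genes. The share of all tested genes called lower was 12.8%. Smad6, the inhibitory SMAD of the BMP side, went from 6.28 ± 0.341 to 0.604 ± 0.176 FPKM (n = 3 each, log2 change -3.21, limma adjusted p = 1.7e-05), whereas Smad7 did not pass on the deposited scale. The activin subunit gene Inhbb went from 11.1 to 1.21 FPKM (-3.11) and the ligand gene Bmp4 changed by -2.58. All 5 called receptor genes were lower: Bmpr1a (-2.14), Bmpr2 (-1.72), Acvr1 (-1.56), Acvr2a (-1.31) and Acvr2b (-1.23). Acvr1b, the type I activin receptor, fell by 0.39 on the log2 scale without a call. Of the genes that BMP signals raise, Id2, at 23.9 and 26.5 FPKM, did not pass (0.15, and -0.43 on the T-cell scale), but passed at 0.22 without cisplatin replicate 1 (limma adjusted p = 0.0211). Id3 rose from 9.17 to 13.1 FPKM (0.51) but not on the T-cell scale (-0.07).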
